A study of Bos taurus with 30 samples.

Results

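Open chromatin of bovine 8-cell embryos cultured with or without α-amanitin was compared here. The comparison used the 6 ATAC-seq libraries of this stage, 3 from α-amanitin treated embryos, called transcription blocked embryos (TBE), and 3 from control embryos, out of 30 libraries in the series. Membership came from the sample labels alone. The 6 lists held 799273 of the 2172195 peaks of the series. All embryos were produced in vitro, from oocytes of abattoir ovaries fertilised with frozen Holstein semen, and were collected at 3 days post-insemination. Each library was made from a pool of embryos from 1 of 3 oocyte collections, and each collection was split between the control and the treated culture. TBE received α-amanitin at 50 µg/ml from the day after insemination, so that they had passed the earlier cleavages in its presence, and control embryos received none. An 8-cell TBE is therefore an embryo held in the inhibitor over several cell cycles, and p-values measure the spread between such pools. All coordinates are those of ARS-UCD1.2.

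α-Amanitin binds RNA polymerase II and blocks elongation of the transcript. Before genome activation, the embryo lives on RNA and protein stored in the oocyte, and in cattle the major wave of embryonic transcription starts around the 8-cell stage. In ATAC-seq, a transposase inserts sequencing adapters where DNA is not covered by nucleosomes or other proteins, so a peak marks a promoter, enhancer, insulator or other stretch of open chromatin. Each peak in the lists carries a fold enrichment, which sets its tag pileup against the background around it, with 1 tag added to both.

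The TBE libraries differed from each other more than the control libraries did. TBE replicates 1, 2 and 3 had 90890, 247513 and 50090 peaks, while control replicates 1, 2 and 3 had 125253, 128958 and 156569. The background level recovered from the lists, which is proportional to the number of tags, was 1.24, 3.82 and 0.347 in TBE and 1.31, 0.806 and 0.808 in control. TBE replicate 2 was thus the deepest of the 6 libraries, TBE replicate 3 was the shallowest, and TBE replicate 1 was close in depth to control replicate 1. Read totals of single libraries are not given in the sources used here.

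TBE lists held fewer strong peaks. Peaks enriched at least 5-fold numbered 7039, 1148 and 9033 in TBE replicates 1, 2 and 3, and 22585, 24115 and 40841 in control replicates 1, 2 and 3. Every TBE list lay below every control list, with a mean of 5740 ± 4100 against 29180 ± 10127 (SD, n = 3 each; two-sided exact permutation p = 0.1, which is the lowest that 3 against 3 can give). As a share of the list, these peaks made up 7.74%, 0.464% and 18.03% in TBE and 18.03%, 18.7% and 26.1% in control, so that by share TBE replicate 3, the shortest list, was level with control replicate 1. In the pair of like depth, TBE replicate 1 held 7039 such peaks and control replicate 1 held 22585. The median fold enrichment of all peaks was 3.37, 2.49 and 3.79 in TBE and 3.84, 3.81 and 4.05 in control, and no TBE value reached a control value (exact permutation test, p = 0.1). This separation was lost among peaks above a mean −log10 q of 3, with 4.19, 3.22 and 5.09 in TBE and 4.39, 4.70 and 4.80 in control (exact permutation test, p = 0.6), where TBE replicate 3 lay above every control library. Median peak width did not separate the groups, with 536.5, 639 and 319 bp in TBE and 421, 353 and 352 bp in control (exact permutation test, p = 0.4).

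**Figure D1:**
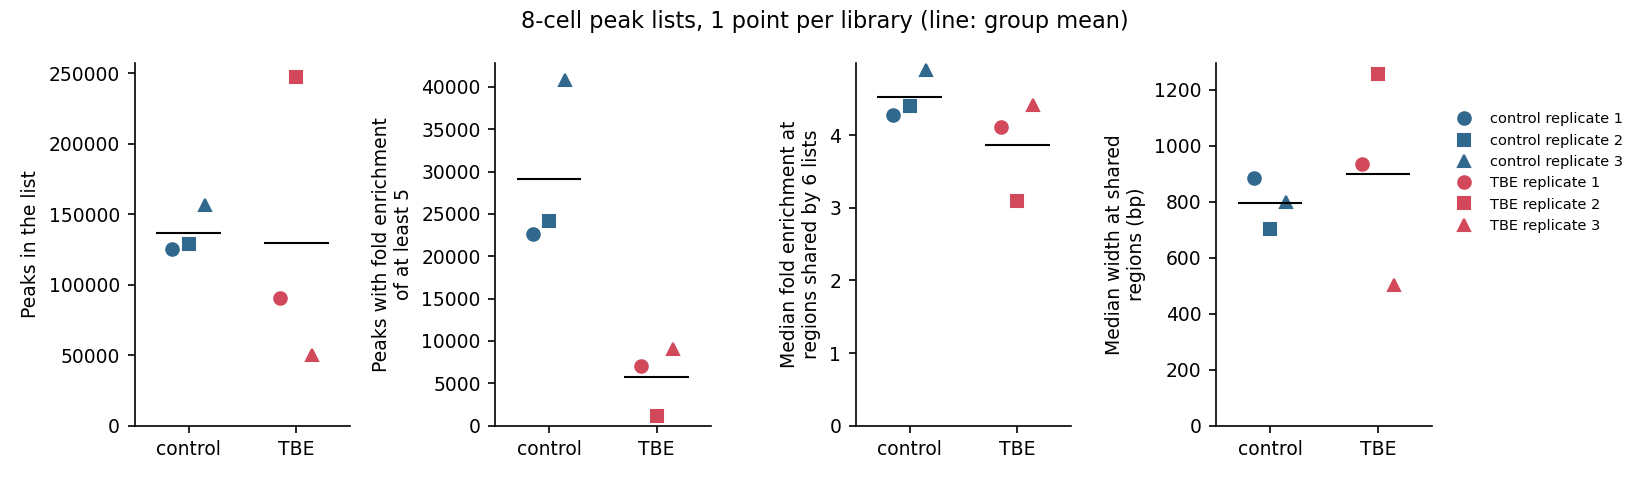
Number of peaks, number of peaks enriched at least 5-fold, median fold enrichment and median width (bp) at regions with a peak in all 6 lists, with 1 point per library and a line at the mean of each group of 3. Only strong peaks separate the groups in these panels: 1148 to 9033 in TBE against 22585 to 40841 in control.

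The first question was whether accessibility at sites open in both conditions differed. Peaks of the 6 lists merged into 389625 regions, of which 20209 had a peak in every library and could be compared. This set is bounded by the shortest list, since 41.8% of the peaks of TBE replicate 3, 23.2% of TBE replicate 1 and 8.44% of TBE replicate 2 fell within it. Fold enrichment was lower in TBE at 2545 regions, 12.6% of those tested, and higher at 115, 0.569% of those tested (limma on log2 fold enrichment, adjusted p under 0.05). The median log2 difference was -0.22, and 15087 regions (74.7%) had a negative difference. At 5187 regions (25.7%) all 3 TBE values lay below all control values, and at 607 (3.00%) all lay above. Of the called regions, 207 (7.78%) had groups that overlapped.

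The balance of lower and higher calls depended on how the libraries were scaled. Median fold enrichment at the shared regions was 4.11, 3.09 and 4.41 in TBE replicates 1, 2 and 3, and 4.28, 4.40 and 4.90 in control. The groups overlapped (exact permutation test, p = 0.3). With the 1 added tag taken out, the medians were 6.61, 3.64 and 14.2 in TBE and 6.77, 8.62 and 9.74 in control, and the difference of the means shrank from -0.657 to -0.214 (exact permutation test, p = 0.9). Taking the tag out used the most frequent background level of a library for all its regions, so these values are approximate. With the library medians set equal, 2118 regions were lower and 1894 higher in TBE. This setting centres the differences (median log2 difference 0.02), so a near balance of calls largely follows from the setting itself. Region by region, with that tag taken out, 0 regions passed limma in either direction and 315 had an unadjusted p under 0.05, and with the medians then set equal 2070 were lower and 1874 higher. Single libraries also moved the counts: 1532 regions were lower and 457 higher without TBE replicate 2, 7955 and 119 without TBE replicate 3, 1284 and 41 without control replicate 2, and 773 and 34 without control replicate 3. The number called higher was 34 without TBE replicate 1 and 51 without control replicate 1. In the pair of like depth, 35947 peaks matched one to one, and TBE replicate 1 had the lower fold enrichment at 56.2% of them, with a median log2 ratio of -0.05. The ratio of TBE replicate 2 to control replicate 1 was -0.47 on the log2 scale, and that of TBE replicate 3 to control replicate 1 was 0.08. The overall size of the difference thus moved with the library, and the part of depth in it was not tested.

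Regions called lower in TBE were the strong sites of control embryos. Their median fold enrichment was 6.37 in control and 3.46 in TBE, against 4.39 and 3.97 at regions not called. Since the control values enter the call, this is a description and not a test. Of the quartile of shared regions with the highest control values, 38.3% were called lower, and of the lowest quartile 0.0990%. The 115 regions called higher had a median of 3.49 in control and 6.21 in TBE. Among them 15 (13.0%) lay on unplaced scaffolds, against 1.52% of all shared regions. Regions called lower were found at other stages about as often as shared regions in general, 74.2% in GV oocytes against 71.1% and 98.5% in morulae against 95.8%. Regions called higher were found in 4-cell embryos in 77.4% of cases, against 52.4% of all shared regions, and in morulae in 80.0%. With medians set equal, 1894 regions were called higher. Of these, 2.80% lay on unplaced scaffolds, 65.5% were found in 4-cell embryos and 92.6% in morulae. These shares were nearer to those of all shared regions (1.52%, 52.4% and 95.8%) but departed from them in the same direction.

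The 5 largest drops kept a weak peak in TBE at sites that ranked among the strongest of control embryos. At chr19:51500158-51500931 (774 bp), fold enrichment was 3.08, 2.35 and 3.42 in TBE replicates 1, 2 and 3, and 8.65, 9.79 and 11.7 in control replicates 1, 2 and 3. The groups were far apart, with a log2 difference of -1.77 (SE 0.24; limma adjusted p = 3.7e-10), which is 3.42-fold lower. The model gave this same SE to each of the largest drops and rises. It is thus a spread taken over many regions and not that of the 6 values at this site. With the medians set equal, the limma adjusted p of this region was 0.000256. This site had a peak in all 3 libraries of GV oocytes, 4-cell TBE, morulae, ICM and ESC and in 2 of 3 of 4-cell embryos, so it was open both before and after the 8-cell stage. At chr25:28563428-28564285 (858 bp), the values were 3.56, 2.90 and 3.08 in TBE and 11.1, 9.13 and 12.5 in control (log2 difference -1.77). At chr23:49153355-49154186 (832 bp) they were 3.00, 2.94 and 3.65 in TBE and 8.75, 10.99 and 13.4 in control. The site on chromosome 23 had a peak in 0 of 3 libraries of GV oocytes and of 4-cell TBE. It had one in 2 of 3 of 4-cell embryos and of ESC, and in all 3 of morulae and of ICM.

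The other two drops lay at chr7:43353098-43355753 (2656 bp) and chr13:58477432-58478753 (1322 bp), with log2 differences of -1.73 and -1.71. At the first of these, peaks covered 1415, 2367 and 396 bp in TBE replicates 1, 2 and 3 and 488, 488 and 503 bp in control. Width did not differ there beyond the spread (limma adjusted p = 0.43). All 5 drops were also called with the medians set equal, with log2 differences of -1.53 to -1.47. With the 1 added tag taken out the differences were -1.94 to -1.87, and none of the 5 passed.

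The 5 largest rises were smaller than the drops. At chr24:28187838-28188684 (847 bp), fold enrichment was 9.75, 7.42 and 8.81 in TBE and 3.14, 4.44 and 3.92 in control, with a log2 difference of 1.18 (SE 0.24; limma adjusted p = 5.1e-05). Every TBE value there was above every control value. This site had a peak in all 3 libraries of 4-cell embryos, in 1 of 4-cell TBE and in 0 of GV oocytes, morulae, ICM and ESC, so among the other stages considered it was called in 4-cell lists alone. At chr21:14141216-14141968 (753 bp) the values were 5.09, 4.52 and 6.85 in TBE and 2.32, 3.11 and 2.08 in control (log2 difference 1.13). At chr25:7921792-7923943 (2152 bp) they were 7.26, 5.13 and 8.41 in TBE and 2.94, 3.53 and 3.10 in control (log2 difference 1.10). The remaining rises, at chr11:99210310-99212572 (2263 bp) and chr2:26734806-26735585 (780 bp), were each 1.04 on the log2 scale. At 4 of these 5 regions the peaks of TBE covered fewer bases on average than those of control, and none of the 5 passed the test for width. With the medians set equal the rises were 1.28 to 1.42 on the log2 scale and were called, and with the 1 added tag taken out they were 1.21 to 1.35 and were not. The 5 drops and the 5 rises were each called whichever 1 library was left out.

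Width at shared regions showed no stable difference. The median number of bases covered was 935, 1257 and 503 bp in TBE replicates 1, 2 and 3, and 883, 702 and 798 bp in control (exact permutation test, p = 0.7). TBE values ran in the order of the background levels, with the widest peaks in the deepest library. In limma, 260 regions (1.29%) were narrower and 234 (1.16%) wider in TBE. These calls were lost, with 0 in each direction, without TBE replicate 1 or without any 1 of the 3 control libraries, while 711 were narrower and 1852 wider without TBE replicate 3 and 583 were narrower and 202 wider without TBE replicate 2. Without TBE replicate 2 the mean of the medians turned from 104 bp wider to 78.5 bp narrower. The pair of like depth differed by 0.03 on the log2 scale, with the peak of TBE replicate 1 the narrower at 47.8% of matched peaks. Regions split into several peaks were less common in TBE, at 4.27%, 3.35% and 3.54% of shared regions against 5.70%, 6.83% and 6.90% in control, and the groups did not overlap (exact permutation p = 0.1).

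The next question was which sites of control embryos were open in TBE at all. Regions were defined from peaks shared by 2 control libraries, and the third control library and each TBE library were then asked for a peak there. Between 85741 and 99155 regions were scored in this way. TBE replicates 1, 2 and 3 had no peak at 67.5%, 53.4% and 75.6% of them, while control replicates 1, 2 and 3, when held out, had none at 16.6%, 18.7% and 6.03%. The means were 65.5% ± 11.2 and 13.8% ± 6.79 (SD, n = 3 each; two-sided exact permutation p = 0.1). TBE replicate 2, with the highest background level, lacked 53.4%, and the held-out control library that lacked most lacked 18.7%. TBE replicate 1 and control replicate 1, with similar background levels, lacked 67.5% and 16.6%. The part of depth in these shares was not tested.

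The share missing in TBE was alike at weak and strong control sites, whereas held-out control libraries rarely lacked a strong one. In the quartile of regions with the lowest fold enrichment, held-out control libraries had no peak at 28.6% ± 11.4 and TBE at 66.5% ± 13.8. In the quartile with the highest fold enrichment, held-out control libraries lacked 1.57%, 2.68% and 0.247%, with a mean of 1.5% ± 1.22, and TBE lacked 62.9%, 50.1% and 69.0%, with a mean of 60.7% ± 9.64 (exact permutation test, p = 0.1 in each quartile). The share also moved with width: TBE lacked 76.9% ± 9.21 of the narrowest quartile and 47.3% ± 11.9 of the widest, and held-out control libraries 25.2% ± 13.2 and 4.97% ± 2.53. On the X chromosome TBE lacked 71.1% ± 10.5 and control 15.7% ± 8.63. Within 5 Mb of the distal ends of autosomes TBE lacked 43.3% ± 13.0 and control 14.5% ± 6.74, against 66.8% ± 11.2 and 13.6% ± 6.86 on the rest of the autosomes.

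**Figure D2:**
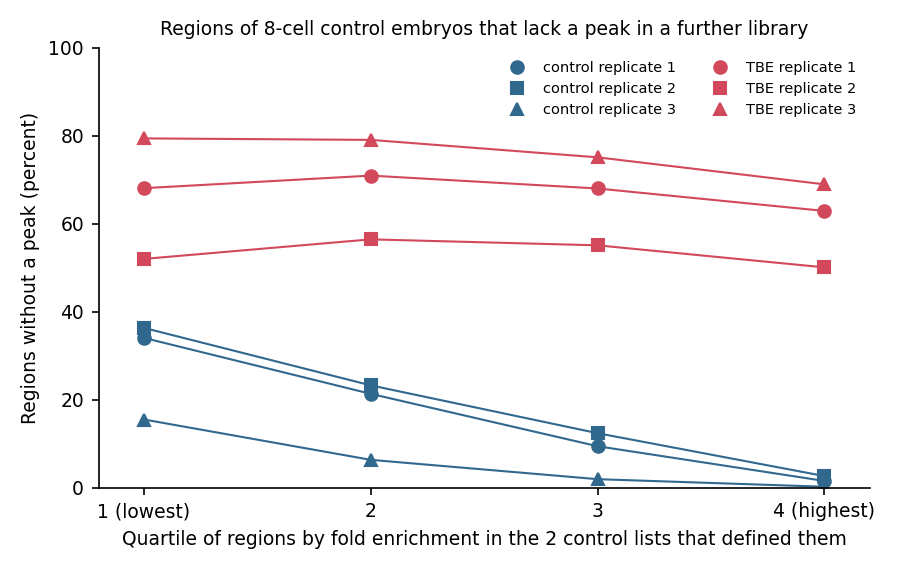
Percent of regions, defined from peaks shared by 2 control libraries, that lack a peak in the third control library or in a TBE library, by quartile of the fold enrichment in the defining libraries. Lines of held-out control libraries fall to between 0.247% and 2.68% in the highest quartile, while those of TBE stay between 50.1% and 69.0%.

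The mirror comparison, with regions from peaks shared by 2 TBE libraries, moved with depth. The held-out TBE library had no peak at 19.0%, 3.19% and 54.7% for replicates 1, 2 and 3, in the order of their background levels, and the control libraries had none at 39.2%, 44.3% and 39.2%. The groups overlapped (25.6% ± 26.4 and 40.9% ± 2.93, exact permutation test, p = 0.4). With an equal number of 50090 top peaks in each list, the means were 18.4% in TBE and 53.0% in control (exact permutation test, p = 0.1). In pairs of lists, 82.2% of the peaks of TBE replicate 1 and 83.0% of those of TBE replicate 3 were overlapped by a peak of TBE replicate 2, the longest list. Control replicate 1, a shorter list, overlapped 40.9% and 52.4%. TBE replicate 3, the shortest list, overlapped 37.4% of the peaks of TBE replicate 1, and TBE replicate 1 overlapped 68.7% of those of TBE replicate 3. In the other direction TBE replicate 1 and TBE replicate 3 overlapped 29.9% and 16.5% of the peaks of TBE replicate 2. The lists of all these pairs were of unequal length, and its part in the shares was not tested.

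Regions sorted by the lists that held them differed in the other stages at which they were open. A total of 38874 regions, 9.98% of all merged regions, had a peak in all 3 control libraries and in no TBE library, and 6425, 1.65%, in all 3 TBE and in no control library. The sorting itself uses these lists, so only peaks of other stages are informative here, and a region was counted at a stage when at least 2 of its 3 libraries had a peak. Of the regions of control alone, 610 (1.57%) were found in GV oocytes, 48 (0.123%) in 4-cell embryos, 25870 (66.5%) in morulae, 8102 (20.8%) in ICM and 2849 (7.33%) in ESC. Regions of TBE alone were found in GV oocytes in 963 cases (14.99%), in 4-cell embryos in 464 (7.22%) and in morulae in 1460 (22.7%). They were found in ICM in 968 cases (15.1%) and in ESC in 1272 (19.8%). In 4-cell TBE, 64 (0.996%) of them were found, and 3 (0.00772%) of the regions of control alone. Regions of all 6 libraries were found in GV oocytes in 71.1%, in 4-cell embryos in 52.4%, in morulae in 95.8% and in ESC in 77.0% of cases. Control-only regions thus had nearly no peaks in lists of GV oocytes and 4-cell embryos and mostly had one in morulae. Regions with a peak in all 6 libraries mostly had one in the oocyte too. Lists of the 2-cell stage were not compared in this way.

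The 3 sets also differed in size and strength, which move with these shares. Median length was 596 bp for regions of control alone, 951 bp for TBE alone and 1680 bp for all 6 libraries. Median fold enrichment was 4.44 in control for the first set, 3.36 in TBE for the second and 4.56 and 3.90 in control and TBE for the last. The lists of other stages were unequal in length, with at least 40132 peaks in GV oocytes, 14355 in 4-cell embryos and 142231 in morulae. How far size, strength and list length set the shares was not tested. Among regions held by all 3 control libraries, those found in GV oocytes were 1.57% of the regions with a peak in 0 TBE libraries, 8.30% with a peak in 1, 30.1% with a peak in 2 and 71.1% with a peak in all 3.

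**Figure D3:**
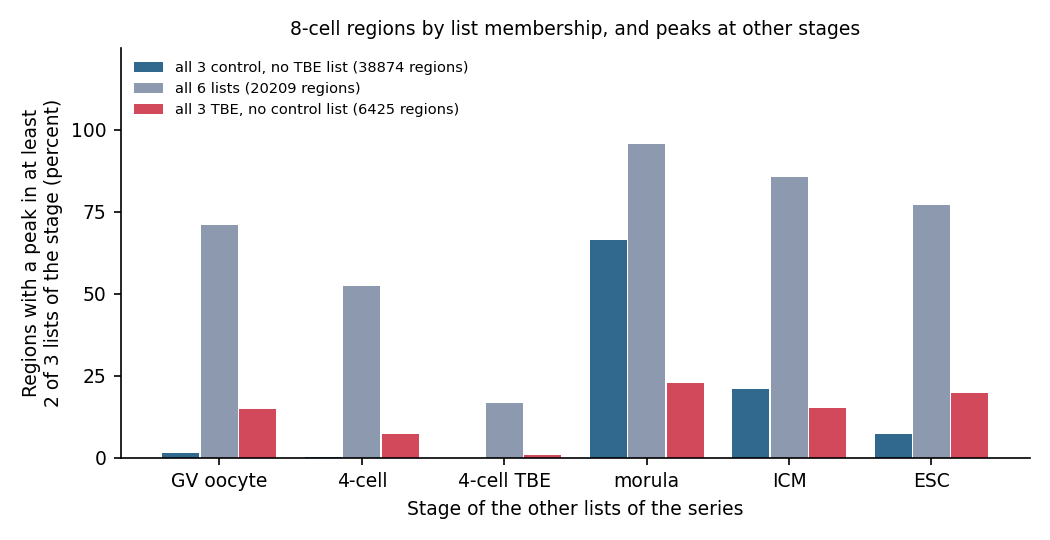
Percent of 8-cell regions with a peak in at least 2 of 3 libraries of each other stage, for regions found in all 3 control and no TBE lists, in all 6 lists, and in all 3 TBE and no control lists. Bars of control-only regions are at 1.57% in GV oocytes and 66.5% in morulae, while those of regions in all 6 lists are at 71.1% and 95.8%.

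The strongest control-only sites covered 361 to 567 bp on average in control, against median peak widths of 352 to 421 bp in the control lists. At chr2:12364302-12364684 (383 bp) fold enrichment was 11.7, 10.8 and 13.3 in control replicates 1, 2 and 3, with no peak in TBE. All 3 morula libraries had a peak there, against 0 of GV oocytes and 4-cell embryos and 0 of ICM. At chr1:64559134-64559616 (483 bp) it was 11.8, 9.82 and 12.8, and it too had a peak in all 3 libraries of morulae and in 0 of GV oocytes, 4-cell embryos and ICM. The next sites, chr21:38188676-38189169 (494 bp), chr4:86382782-86383245 (464 bp) and chr17:53575499-53576112 (614 bp), had peaks in all 3 libraries of morulae and of ICM and in 0 of ESC. Among control-only regions at least 1000 bp wide on average, chr28:21493982-21495235 (1254 bp) was the strongest, with 8.59, 9.55 and 9.76. It was followed by chr6:8091693-8093103 (1411 bp), chr4:72656212-72657991 (1780 bp), chr6:87178515-87179849 (1335 bp) and chr7:76715068-76716356 (1289 bp). In morulae, each of these 10 regions had a peak in all 3 lists, in 4-cell embryos none had one in any list, and 1 of them, the site on chromosome 4 of 464 bp, had a peak in a library of GV oocytes. Control peaks at these 10 regions ranged from 6.69 to 13.3, high values that follow from their choice by control fold enrichment.

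The strongest sites of TBE alone were a mixed group. At chr1:104845676-104846075 (400 bp), fold enrichment was 9.30, 7.55 and 7.17 in TBE replicates 1, 2 and 3, and no control library had a peak. It had a peak in all 3 libraries of 4-cell embryos and in 2 of 3 of morulae. At chr7:107416643-107417074 (432 bp) it was 8.82, 5.74 and 8.50, and 2 of 3 libraries of 4-cell embryos and all 3 of ICM had a peak. The other 3 of the strongest 5 lay on unplaced scaffolds. Among wide regions, 1 of the 5 strongest lay on an unplaced scaffold, and it is also one of those 3. The others were chr4:20476971-20480576 (3606 bp; 5.31, 4.00 and 6.60 in TBE), chr9:58261825-58264555 (2731 bp; 5.02, 4.19 and 6.58), chr4:41405698-41407754 (2057 bp; 4.77, 3.66 and 7.30) and chr12:53855466-53858452 (2987 bp; 6.01, 3.51 and 6.06). Unplaced scaffolds held 1.28%, 0.751% and 1.31% of the peaks of TBE replicates 1, 2 and 3, and 0.778%, 0.723% and 0.576% in control, and these groups overlapped (exact permutation test, p = 0.2).

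Peaks of TBE were crowded towards the distal ends of the autosomes. Bovine autosomes are acrocentric, with the centromere at the start of the numbering and the telomere of the long arm at the far side. The last 5 Mb of the 29 autosomes made up 5.83% of their length. They held 14.2%, 9.77% and 11.4% of the peaks of TBE replicates 1, 2 and 3, and 6.04%, 5.56% and 5.35% of those of control replicates 1, 2 and 3. Every TBE library lay above every control library, with means of 11.8% ± 2.25 and 5.65% ± 0.354, a 2.08-fold ratio (SD, n = 3 each; exact permutation p = 0.1). The difference was 6.13 percentage points, and 6.68 with an equal number of top peaks from each list. The first 5 Mb held 5.17% ± 0.334 in TBE and 4.85% ± 0.107 in control, a difference of 0.316 points (exact permutation p = 0.1) that shrank to 0.124 without TBE replicate 2.

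The excess fell off with distance. Per 1000 peaks of a library, the 44 bins of 1 Mb nearest the distal ends held 1.10, 0.683 and 0.901 peaks in TBE and 0.440, 0.383 and 0.372 in control, a ratio of 2.24. The ratio was 1.99 from 2 to 5 Mb, 1.39 from 5 to 10 Mb, 1.06 from 10 to 20 Mb, 0.897 from 20 to 40 Mb and 0.876 beyond. In each of these 6 windows the groups did not overlap (exact permutation test, p = 0.1 in each). Control lists were flat in comparison, at 0.374 to 0.412 in all windows. Peaks near the ends were not stronger than the others. Their median fold enrichment was 3.05, 2.36 and 3.78 in TBE, against 3.42, 2.50 and 3.78 elsewhere on the autosomes, and in control 3.49, 3.64 and 3.97 against 3.86, 3.82 and 4.05.

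**Figure D4:**
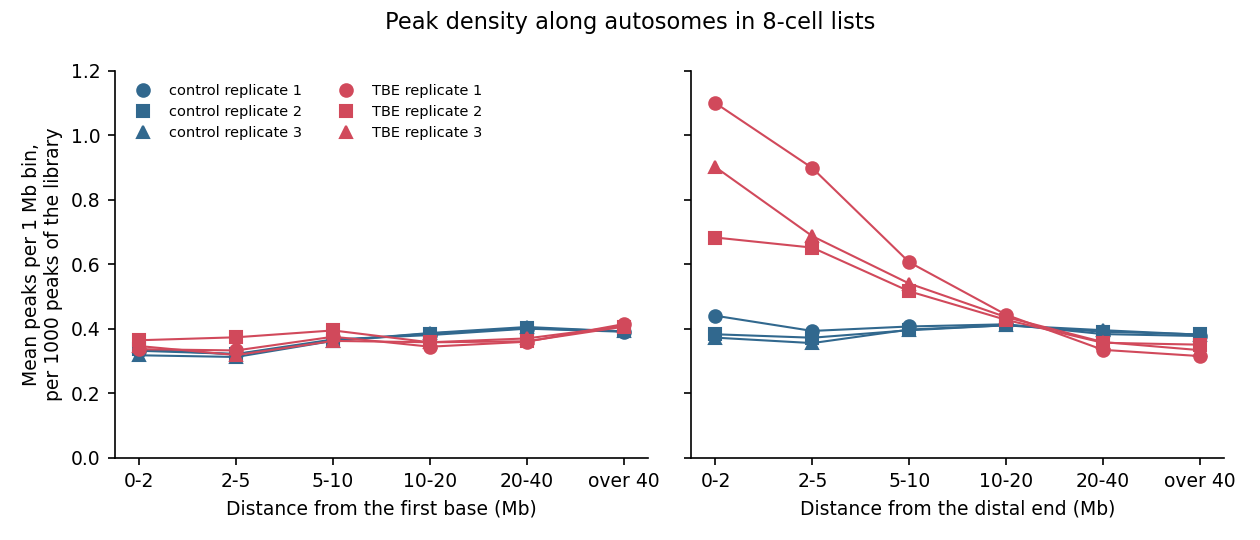
Mean number of peaks per 1 Mb bin, per 1000 peaks of the library, by distance (Mb) from the first base and from the distal end of autosomes, with 1 line per library. Near the distal end TBE libraries reach 0.683 to 1.10 and control libraries 0.372 to 0.440, while at the first base the lines lie together.

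The pattern was shared by the autosomes. On 28 of 29 the share of peaks in the last 5 Mb was higher in all 3 TBE libraries than in all 3 control libraries. The exception was chromosome 18, with 15.2%, 10.3% and 16.8% in TBE and 10.8%, 9.96% and 9.65% in control. Chromosome 26 differed most, with 22.8%, 15.9% and 15.2% against 5.49%, 5.20% and 4.10%, followed by chromosome 20 with 21.2%, 14.3% and 13.4% against 4.42%, 4.70% and 4.25%. The smallest of the separated differences was on chromosome 2, with 7.89%, 6.27% and 6.73% against 3.29%, 3.31% and 3.41%. TBE replicate 1, close in depth to control replicate 1, had the highest value on every autosome but 17 and 18.

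**Figure D5:**
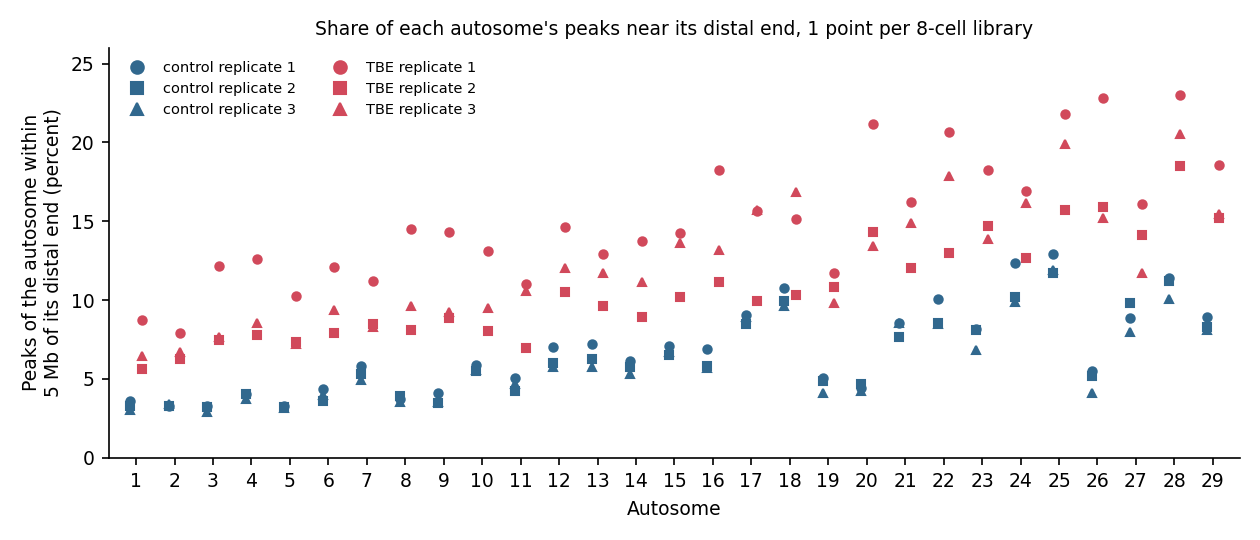
Percent of the peaks of each autosome that lie within 5 Mb of its distal end, with 1 point per library. TBE points lie above control points on 28 of 29 autosomes, and the gap is widest on chromosomes 26 and 20.

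Bins of 1 Mb located these differences without a prior choice of region. Of 2605 bins tested, 691 (26.5%) had a lower and 337 (12.9%) a higher share of the library's peaks in TBE (limma on log2 peaks per 1000, adjusted p under 0.05). The groups did not overlap in 912 bins (35.0%) with TBE lower and in 504 bins (19.3%) with TBE higher. Of the 131 bins within 5 Mb of a distal end, 110 (84.0%) were called higher and 0 lower, against 12.9% and 26.5% of all bins tested. The 276 bins within 10 Mb of a distal end made up 165 (49.0%) of the 337 bins called higher. Without 1 control library the calls fell to between 274 and 319 lower and between 159 and 185 higher.

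The 5 bins with the largest rise all lay within 4 Mb of a distal end. In chromosome 26 from 48 to 49 Mb, TBE replicates 1, 2 and 3 had 109, 199 and 27 peaks, and control replicates 1, 2 and 3 had 21, 22 and 23. Per 1000 peaks of the library this was 0.847 ± 0.332 against 0.162 ± 0.0129 (SD, n = 3; log2 difference 2.02, SE 0.25; limma adjusted p = 0.0026). The others were chromosome 20 from 69 to 70 Mb (1.97), chromosome 5 from 118 to 119 Mb (1.93), chromosome 23 from 51 to 52 Mb and chromosome 14 from 79 to 80 Mb (both 1.83). In 4 of these 5 bins GV oocytes also had a high density, 0.782 to 0.984 peaks per 1000, and in morulae it was 0.244 to 0.441. On chromosome 14 the density was 0.621 ± 0.199 in GV oocytes, 0.843 ± 0.155 in 4-cell embryos and 0.255 ± 0.0549 in morulae, against 1.07 ± 0.283 in 8-cell TBE and 0.257 ± 0.0222 in 8-cell control.

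The 5 bins with the largest drop lay inside chromosomes, 44.3 to 107.6 Mb from the distal end. In chromosome 6 from 73 to 74 Mb, TBE replicates 1, 2 and 3 had 0, 33 and 0 peaks, and control replicates had 50, 45 and 55 (log2 difference -2.43, SE 0.45; limma adjusted p = 0.0059). In chromosome 5 from 12 to 13 Mb, TBE had 5, 43 and 2 peaks and control 67, 67 and 87 (log2 difference -2.19). The other 3 were chromosome 11 from 31 to 32 Mb (-2.14), chromosome 24 from 15 to 16 Mb (-2.06) and chromosome 11 from 53 to 54 Mb (-2.0). Most of the peaks of TBE in these bins were in replicate 2, the deepest library. In morulae these bins held 0.170 to 0.426 peaks per 1000, and in GV oocytes 0 to 0.0958. With 0.05 added to every density, these differences understate the change of the emptiest bins. The 10 bins named here were each called whichever 1 library was left out.

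Whole chromosomes shifted as well, by less. The share of a library's peaks was lower in TBE for 5 of 30 chromosomes (16.7%) and higher for 8 (26.7%; limma, adjusted p under 0.05). Chromosome 27 rose most, with 2.52%, 2.20% and 2.13% of peaks in TBE against 1.54%, 1.65% and 1.60% in control (log2 difference 0.51, SE 0.07; limma adjusted p = 0.0037), and 18 of its 45 bins were called higher. Chromosome 24 followed, with 3.48%, 2.85% and 2.91% against 2.27%, 2.29% and 2.21% (log2 difference 0.45). Both were called without any 1 library. The other higher shares were those of chromosomes 23, 18, 12, 13, 14 and 25, with log2 differences of 0.15 to 0.30. None of these 6 was called when control replicate 1, 2 or 3 was left out, and with an equal number of top peaks chromosome 18 stood at 0.06 (limma adjusted p = 0.24) and chromosome 25 at -0.00283.

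The X chromosome fell most. It held 1.96%, 2.67% and 2.05% of the peaks in TBE replicates 1, 2 and 3 and 3.11%, 2.80% and 2.95% in control (log2 difference -0.42, SE 0.11; limma adjusted p = 0.024). TBE replicate 2 lay just below the lowest control library. Of 132 bins on X, 60 (45.5%) were called lower, against 26.5% of all bins, and 7 (5.30%) higher. The sex of the pooled embryos is not given in the labels, and its part was not tested. Chromosomes 3, 2, 6 and 10 were also lower, with log2 differences of -0.27 to -0.18. The X chromosome was no longer called without TBE replicate 1 (log2 difference -0.33), TBE replicate 3 (-0.37), or control replicates 1, 2 or 3 (-0.38, -0.46 and -0.42), and the number of chromosomes called ranged from 0 to 9 lower and from 2 to 10 higher when 1 library was left out.

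Likeness in the position of peaks followed the treatment. Across 2605 bins, the Spearman correlation of peak density was 0.935 to 0.943 between control libraries, 0.794 to 0.917 between TBE libraries and 0.448 to 0.656 between a TBE and a control library. These bins share base composition and mappability, so the values describe likeness only. TBE replicate 1 correlated at 0.888 and 0.917 with TBE replicates 2 and 3, whose background levels were 3.82 and 0.347. With control replicate 1, of similar background level, it correlated at 0.613. The part of depth in these values was not tested. Among an equal number of 50090 top peaks, the median gap between neighbouring peaks was 19.1, 21.1 and 24.3 kb in TBE and 25.5, 25.0 and 26.04 kb in control, so peaks of TBE sat closer together (exact permutation test, p = 0.1, groups not overlapping). With all peaks of each list the direction turned, to a mean gap 3.43 kb longer in TBE, with overlapping groups (exact permutation test, p = 0.8).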

How the data were processed

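ATAC-seq peak lists of 6 bovine 8-cell libraries (3 TBE, 3 control) were analysed, with lists of other stages as reference. The authors trimmed reads with Trim Galore and used BWA 0.7.17 for alignment to ARS-UCD1.2. They removed duplicates and, with SAMtools 1.7, alignments of quality under 15, and called broad peaks with MACS2 2.1.1 at a q value of 0.05 without a control library (versions from the submitters' processing notes). The deposited fold enrichment is a ratio, and the deposited −log10 p and −log10 q values are means over a peak. The paper describes peaks from merged and subsampled reads, whereas each list used here is 1 library. Libraries were size-selected for short fragments. The deposited score was not used.

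Peaks of the 6 lists were merged at 1 bp overlap. Fold enrichment of a region was the length-weighted mean of its peaks in a library, and width the bases they covered. Regions with a peak in all 6 libraries, 1 Mb bins (log2 of peaks per 1000 plus 0.05, bins with a mean of at least 5 peaks) and chromosome shares were tested with limma 3.58.1 (R 4.3.3; Benjamini-Hochberg over all features, adjusted p under 0.05), treatment being the only term. For single values per library, two-sided permutation tests were enumerated exactly in Python 3.11.15 with numpy 2.4.6 and cannot go below p = 0.1. Chromosome ends were taken as the last base of any peak in the 30 lists. The background level was solved from −log10 p and fold enrichment in scipy 1.17.1, with a tolerance of 0.0001 on −log10 p. The most frequent value was taken for the whole library.

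On simulated data for the shared regions, 177 of 200 regions with a log2 change of 1 and 3 of 20009 unchanged ones were called. The simulated noise was independent, of the same spread at every region and without a shift of whole libraries. These rates therefore do not carry over to the real calls, which moved with the scaling of the libraries. The members, tests and lists were chosen with earlier results of these data known. Named regions were the 5 largest drops and rises among called shared regions without overlap of the groups, the 5 strongest and the 5 strongest wide regions (at least 1000 bp) of control alone and of TBE alone, the 5 bins with the largest drop and rise, and every chromosome called. Names of unplaced scaffolds are not given. The treated and control libraries share replicate numbers, but no source states that a number marks a collection, so libraries were not paired. Genes, motifs and sequences at the regions were not analysed here, for want of a genome of this build.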

Additional observations from a re-analysis of the deposited data

How the results depend on the processing

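Among recomputed values of the comparisons, 132 were classed as unchanged, 40 as weaker, 12 as stronger and 7 as reversed. Counts of limma calls were classed as unchanged when close in size to the main count. Values tested by permutation could only be unchanged or reversed in direction, since their exact permutation p cannot go below 0.1. Among those for named regions, bins and chromosomes, 291 kept their direction and their side of the limma threshold, 55 were weaker and 1 was reversed. The reversed one was chromosome 25, at -0.00283 on the log2 scale with an equal number of top peaks. The share of control regions without a peak and the share of peaks in the last 5 Mb kept their direction, with no overlap of the groups, under every alternative run. The median fold enrichment kept its direction only: at shared regions the difference was -0.214 with the added tag taken out (exact permutation p = 0.9), and for all peaks it was -0.463 above a mean −log10 q of 3 (exact permutation p = 0.6, where it had been 0.1). The cause of the changes below was not tested.

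With only peaks above a mean −log10 q of 3, 401 shared regions were lower and 22 higher of 8774 tested, and the difference in covered length, TBE minus control, turned from 15.5 to -22.1 Mb. With equal numbers of top peaks 45 regions were higher and 11 chromosomes lower. With medians set equal 1894 regions were higher, 689 narrower and 591 wider. With the added tag taken out 0 were lower and 0 higher in limma (315 at an unadjusted p under 0.05), and 1874 were higher once the medians were also set equal, an alternative chosen after seeing the data. Bins of 5 Mb gave 177 lower and 76 higher, of 511 tested in place of 2605. The gap between peaks was 3.43 kb longer in TBE with all peaks of a list.

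With the replicate number as a block, 3672 shared regions were lower and 221 higher, 0 narrower and 0 wider (2681 at an unadjusted p under 0.05), 738 bins were lower and 331 higher, and chromosomes 14 and 25 were no longer called. Deviations of same-numbered libraries correlated at 0.123, -0.035 and 0.108 for fold enrichment and at 0.290, 0.132 and -0.013 for peak density, so the numbers were not taken to pair the libraries.

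Leaving out each library in turn, TBE minus control ranged from -66400 to 32300 for the number of peaks and from -34.7 to 50.1 Mb for the covered length. For median width at shared regions it ranged from -78.5 to 268 bp. Shared regions lower numbered 773 to 7955, higher 34 to 457, narrower 0 to 711 and wider 0 to 1852. Bins lower numbered 274 to 1020 and higher 159 to 486, and chromosomes lower 0 to 9 and higher 2 to 10. The share of control regions without a peak differed by 46.7 to 57.8 points and that of peaks in the last 5 Mb by 4.91 to 7.13. Depth limits what a missing peak means, since TBE replicate 3 had a background level of 0.347. Motif alternatives were not run.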

Other observations

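The share of peaks in the last 5 Mb of autosomes can be set beside that of the other lists of the series, each the mean of 3 libraries. It was 12.9% ± 0.808 (SD) in GV oocytes, 8.79% ± 0.758 in 2-cell and 9.42% ± 0.735 in 4-cell embryos, 6.81% ± 0.296 in morulae, 6.96% ± 0.777 in ICM and 6.41% ± 0.392 in ESC. In TBE of the 2-cell stage it was 8.93% ± 1.01 and in 4-cell TBE 8.59% ± 0.840. The 8-cell control value of 5.65% ± 0.354 was the lowest of these groups, and the 8-cell TBE value of 11.8% ± 2.25 was nearest to that of GV oocytes. Lists at the early stages were short, with as few as 925 peaks in 2-cell TBE, 1002 in 2-cell and 3094 in 4-cell TBE libraries, and these differences between stages were not tested.

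Regions with a peak in 1 TBE library and no control library were the most numerous kind, 151888 of 389625 (38.98%), and 133984 of the merged regions had a peak in TBE replicate 2 alone. Their median fold enrichment was 2.47. Of these single-library regions 8.37% lay in the last 5 Mb of autosomes, against 16.7% of regions in 2 and 21.1% of regions in all 3 TBE libraries, and against 4.75%, 3.38% and 2.74% of regions in 1, 2 and all 3 control libraries without TBE.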
